A study of Mus musculus with 2 samples.

Results

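Mir126a, Mir221 and Mir222 are microRNA (miRNA) genes of the vascular wall, and their 3 rows of the 1973 gene rows were measured by small RNA sequencing in the newborn mouse heart. They were taken by gene identity: the Ensembl identifiers that map to these symbols, ENSMUSG00000065540.1, ENSMUSG00000065422.1 and ENSMUSG00000065471.1. The single group was the whole heart of pups of mouse strain B6NCrl at postnatal day 0, with no treatment named in the labels. Each of the 2 samples was the heart of 1 pup, pup 2 as replicate 1 and pup 3 as replicate 2, both born to pregnant female 1, and sex was not collected. With 1 group, the questions open to these data were how abundant each gene was, how the 3 genes stood to each other and to other vascular miRNAs, and how far the hearts of 2 littermates differed.

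A miRNA is cut from a hairpin precursor and guides a silencing complex to messenger RNAs that match its seed, bases 2 to 8 from its 5′ end. Mir126a lies in Egfl7, a gene for a secreted protein of endothelial cells, and is known as the miRNA that keeps vessels intact by releasing VEGF signalling from inhibitors such as Spred1 and Pik3r2. Mir221 and Mir222 come from a shared cluster, occur in endothelium, smooth muscle, blood progenitors and many dividing cells, and are known for repressing the receptor Kit and the cell cycle inhibitor Cdkn1b. In endothelium Mir221 and Mir222 are described as restraining migration in response to the Kit ligand, and in smooth muscle as promoting growth. Mir126a is also present in blood progenitors and platelets. The counted gene rows are miRNA genes only, so no messenger RNA marker of endothelium could be set beside them. The name endothelial rests on background knowledge.

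The mature sequences of the 3p arms are shown because they separate the genes into 2 seed groups. Capitals mark the seed, and the sequences are from RefSeq on GRCm38.p6, where all 3 symbols matched.

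miR-126a-3p: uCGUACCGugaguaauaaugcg

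miR-221-3p: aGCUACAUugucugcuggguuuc

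miR-222-3p: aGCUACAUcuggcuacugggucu

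The 3p arms of Mir221 and Mir222 were identical over their first 8 bases and differed at 12 of 23 positions, all after the seed. Counted from the 5′ end, the first 2 differences were U9C and G10U, with the base of Mir221 first. Among 1738 mature entries of the table, the only other miRNA with their seed was miR-1928. The gene of miR-1928 was not among the 615 genes with a count. If it has a row, 0 counts allow levels below 1.29 CPM and 0.860 CPM. No other entry had the seed of miR-126a-3p. That seed holds the dinucleotide CG 2 times, as do the seeds of 19 of 1674 distinct mature sequences (1.14%, this arm included), while 13.1% hold it at least once.

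The hairpins are printed with the mature arms of the table in capitals, because a stretch shared with another gene would make reads ambiguous. No 5′ arm was listed for Mir126a or Mir222. Any such arm is therefore unmarked, and its seed and its places in transcripts were not examined.

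Mir126a: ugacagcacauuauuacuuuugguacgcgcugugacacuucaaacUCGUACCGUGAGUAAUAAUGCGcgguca

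Mir221: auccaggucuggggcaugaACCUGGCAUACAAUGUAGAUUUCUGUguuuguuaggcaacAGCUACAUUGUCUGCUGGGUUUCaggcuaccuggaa

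Mir222: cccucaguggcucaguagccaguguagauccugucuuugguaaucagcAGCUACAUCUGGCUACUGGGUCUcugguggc

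None of the 3 hairpins shares a stretch of 20 nt with another annotated miRNA gene on the same strand, whereas 923 of 1894 miRNA genes do (48.7%). The longest stretch common to the hairpins of Mir221 and Mir222 was 9 nt. On the sense strand of the GENCODE M21 transcripts, every mature arm listed for the 3 genes occurred only in its own gene and, for miR-126a-3p, in the host Egfl7. No gene received the multiply aligned reads, which made up 36.6% of replicate 1 and 37.1% of replicate 2. Whether any of those reads came from these 3 genes was not tested. Minimum free energies predicted at the default temperature of RNAfold were -31.2 kcal/mol for the 73 nt of Mir126a, -42.8 for the 95 nt of Mir221 and -40.7 for the 79 nt of Mir222. The median over 1005 hairpins was -32.0, at a median length of 79 nt. Per nt, the values were -0.427 for Mir126a, -0.451 for Mir221 and -0.515 for Mir222, beside a median of -0.406.

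On GRCm38, Mir126a lies on chromosome 2, 26591357 to 26591429, plus strand. Egfl7 (26580014 to 26593120, plus strand) has 19 annotated transcripts, of which 9 span the miRNA: it is intronic in 8, 7 of them protein-coding, and exonic in 1 retained-intron transcript. The single transcript of Gm20532, a longer gene on the same strand, also carries it in an intron. Mir126b is annotated on the opposite strand at 26591363 to 26591420, inside the span of Mir126a. Mir221 lies on chromosome X, 19146294 to 19146388, and Mir222 at 19146893 to 19146971, both on the minus strand and 504 nt apart. No annotated gene of another kind overlaps either, and the nearest, the noncoding Gm14636 on the same strand, lies 10010 nt from Mir222.

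Mir126a, the endothelial miRNA of Egfl7, had the most assigned sense counts of any gene in both hearts, while Mir221 and Mir222 ranked between 148 and 188. These ranks leave out the multiply aligned reads, which outnumbered those of Mir126a. Multi-copy miRNAs of the heart had few assigned counts, 17 and 19 for Mir1a-1 and 22 and 36 for Mir26a-1, so first place among all heart miRNAs is not shown. Replicate 1 held 2323450 sense counts on miRNA genes and replicate 2 held 3487183, and levels are given as a share of these or as CPM, sense counts scaled to 1000000. Mir126a had 251188 counts in replicate 1 and 368283 in replicate 2. These were 10.8% (exact Clopper-Pearson 95% interval 10.77% to 10.85%) and 10.6% (10.53% to 10.59%), a mean of 10.7% ± 0.177 (SD, n = 2). The intervals for this share did not overlap, so on sense counts the libraries differed by more than counting error. As a share of all reads the change was smaller, at -0.451%, and whether it exceeded counting error was not tested. Intervals cover counting error only, since reads carried no molecular identifiers. In bulk tissue, fewer cells of a type and less RNA per cell cannot be told apart.

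Mir221 had 261 counts in replicate 1 and 454 in replicate 2. Its level was 112 CPM (99.1 to 127) and 130.2 CPM (118 to 143), a mean of 121 ± 12.6 (SD, n = 2), higher in replicate 2 with overlapping intervals. It ranked 150 and 148 in the 2 hearts, among 327 genes that reached 2 CPM in both.

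Mir222 had 133 and 198 counts. Its level was 57.2 CPM (47.9 to 67.8) in replicate 1 and 56.8 CPM (49.1 to 65.3) in replicate 2, a mean of 57.01 ± 0.327 (SD, n = 2). The pups were nearly level for this gene, well within counting error, and it ranked 183 and 188. The 5′ arm and the 3′ arm of each hairpin were counted together.

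**Figure D1:**
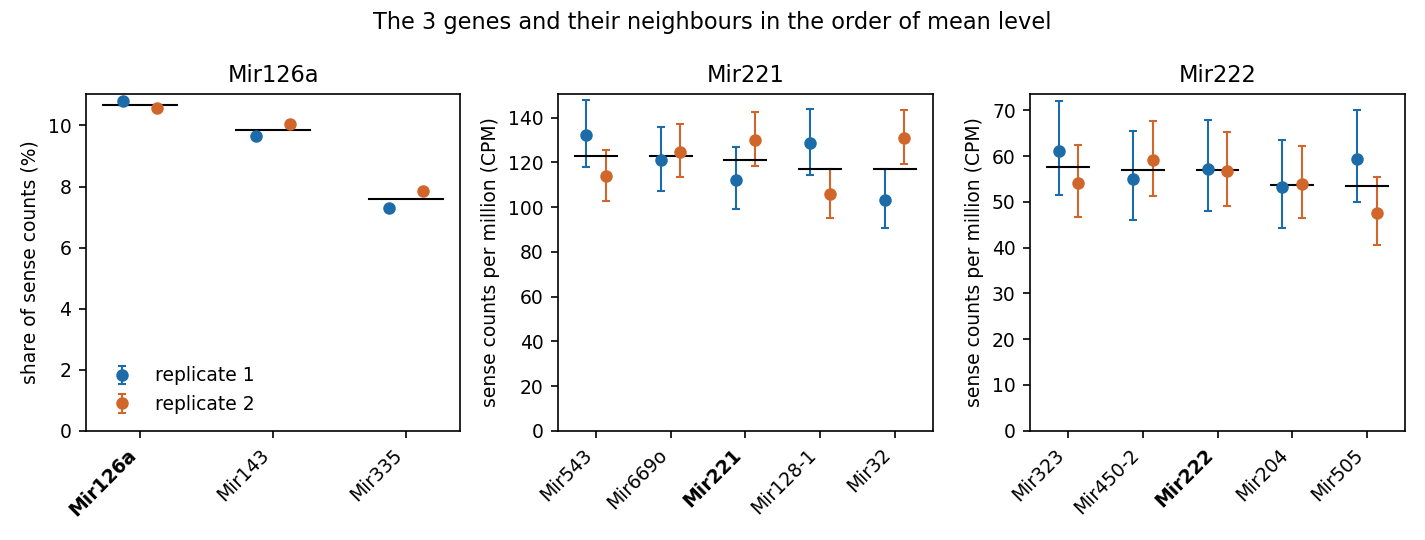
Level of Mir126a (left, share of sense counts in percent), Mir221 (middle, CPM) and Mir222 (right, CPM) beside the genes next to them in the order of mean level, with blue points for replicate 1, orange points for replicate 2, exact 95% counting intervals as bars and the mean as a line. Mir126a lies above Mir143 in both hearts, while Mir221 at 112 and 130.2 CPM and Mir222 at 57.2 and 56.8 CPM lie among their neighbours.

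The order at the top separated, and the order around Mir221 and Mir222 did not. Mir126a exceeded Mir143, the smooth muscle miRNA next in order, 1.12-fold in replicate 1 and 1.05-fold in replicate 2, and the ranges of the pups, 105610 to 108110 CPM against 96664 to 100489 CPM, did not overlap. Mir335, an imprinted miRNA in Mest, ranked 3 at 7.58% ± 0.402 (SD, n = 2). These compare counts, and the number of reads that a molecule of each miRNA yields was not measured. By mean level and over 2 libraries, the genes closest to Mir221 were Mir669o (123 CPM ± 2.69), Mir543 (123 ± 12.9), Mir128-1 (117 ± 16.2) and Mir32 (117 ± 19.6), all overlapping it. Those closest to Mir222 were Mir450-2 (57.1 ± 2.82), Mir323 (57.7 ± 4.89), Mir204 (53.6 ± 0.384) and Mir505 (53.5 ± 8.34). Mir222 lay within the pup ranges of Mir323, Mir450-2 and Mir505, and its 2 values lay above those of Mir204 by less than the counting interval. Mir669o, Mir128-1 and Mir450-2 contain a stretch of at least 20 nt found elsewhere among miRNA genes, so their levels are uncertain. A likeness of pattern across samples cannot be measured with 2 libraries.

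Mir221 exceeded its cluster partner Mir222 in both hearts, although both lie within 1 kb on the same strand. The ratio of sense counts was 1.96-fold (95% interval 1.59 to 2.44) in replicate 1 and 2.29-fold (1.94 to 2.72) in replicate 2. The mean log2 ratio was 1.08 ± 0.159 (SD, n = 2), or 2.12-fold. A difference in this ratio between the libraries did not pass the test (p = 0.272, Fisher's exact test, two-sided), and the intervals overlapped. Summed over both genes, whose 3p arms share a seed, there were 394 counts (170 CPM) in replicate 1 and 652 counts (187 CPM) in replicate 2, or 0.0178% ± 0.00123 of sense counts (SD, n = 2). The sum includes any reads of the 5′ arms, so it is not the level of that seed alone.

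Mir126a exceeded that sum 638-fold (578 to 706) in replicate 1 and 565-fold (523 to 611) in replicate 2, a mean log2 ratio of 9.23 ± 0.123 (SD, n = 2). The difference between the genes was thus far larger than the spread between the pups.

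Partners in other miRNA clusters often stood further apart than Mir221 and Mir222. Over 103 pairs of consecutive detected genes on the same strand at most 10 kb apart, both at 2 CPM or more in both hearts, the median absolute log2 ratio was 2.62, or 6.16-fold, with a range from 0.07 to 9.38. The value for Mir221 and Mir222, 1.08, had 26 pairs below it. Its SD between the pups, 0.159 on the log2 scale, was larger than that of 63 pairs, and the median SD over all 103 pairs was 0.10. Mir145a and Mir143, the smooth muscle cluster, differed by 5.85 on the same scale. Some pairs include a gene that shares 20 nt with another miRNA gene, so its level is uncertain. Without such genes, 68 pairs remained, with a median of 2.55 and a maximum of 8.18. Pairs share libraries and clusters, so this is a description without a test.

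**Figure D2:**
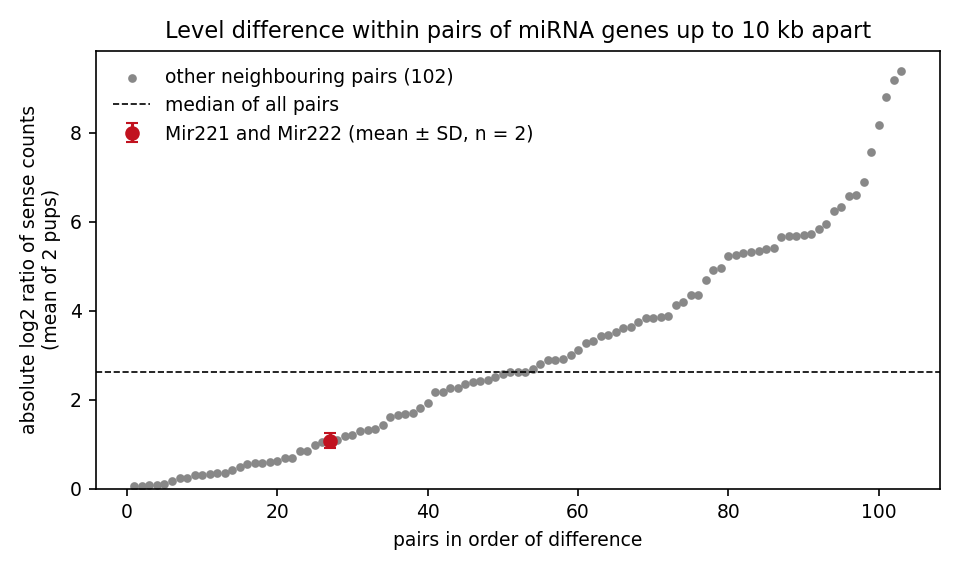
Absolute log2 ratio of sense counts (vertical axis, mean of 2 pups) for 103 pairs of neighbouring miRNA genes, in order of size along the horizontal axis. Mir221 and Mir222 (red, mean ± SD, n = 2) lie at 1.08, below the dashed median of 2.62.

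Between the 2 hearts, Mir126a was lower in replicate 2 by a small amount, and Mir221 and Mir222 did not pass the test. Sense counts of each gene were set against library sizes scaled by TMM in an exact binomial test, two-sided. The p-values were adjusted by Benjamini-Hochberg over the 615 genes with a count, and a gene was called at an adjusted p under 0.05. The test sets 2 libraries against each other at counting error and says nothing of conditions, and each heart gave 1 library. In all, 14% of the 615 genes were called in either direction, 8.94% were called higher in replicate 2, 5.04% were called lower in replicate 2, and 2.93% were both called and past 1.5-fold. Of the 3 genes, 1 was called and 0 were past 1.5-fold.

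Mir126a was lower in replicate 2 at a log2 ratio of -0.05 (0.966-fold, 95% interval 0.961 to 0.971, adjusted p = 2.00e-39, exact binomial test). Small differences passed at such counts: of the 75 genes whose mean reached 1000 CPM, 64% were called, 23 higher and 25 lower, with a median absolute log2 ratio of 0.09. The size also depended on what it was divided by. As a share of all reads of a library, unmapped and multiply aligned reads included, Mir126a held 4.97% in replicate 1 and 4.95% in replicate 2, a change of -0.451%, against -2.31% for the share of sense counts. With the same change of denominator, Mir222 went from -0.809% to 1.08%, a turn of direction within counting error, and Mir221 from 15.9% to 18.1%. For Mir126a, the SD over the pups was 1.65% of the mean for the share of sense counts. It was 0.320% of the mean for the share of all reads. The 5 neighbours within 2-fold of the level of Mir126a had log2 ratios from -0.08 to 0.09, and 3 of the 5 were called.

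Mir221 stood at 1.15-fold in replicate 2 over replicate 1 with an interval of 0.982 to 1.34 (log2 ratio 0.19, adjusted p = 0.375, exact binomial test). Mir222 had a ratio of 0.981-fold with an interval of 0.783 to 1.23 (log2 ratio -0.03, adjusted p = 1, exact binomial test). At these counts a difference within those intervals was not detectable. Of 60 other genes within 2-fold of the level of Mir221, 11 were called and 25 had a larger absolute log2 ratio; of 60 near Mir222, 7 were called and 55 had a larger one.

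**Figure D3:**
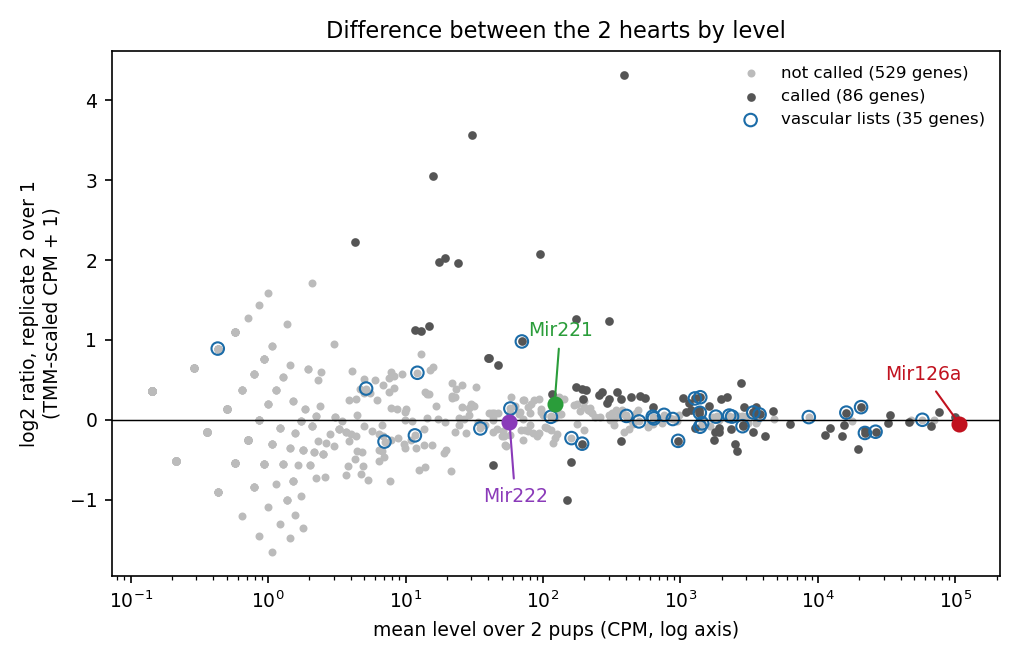
Log2 ratio of replicate 2 over replicate 1 (vertical axis, TMM-scaled CPM with a pseudocount of 1) against mean level (horizontal log axis, CPM) for 615 genes, with called genes dark, genes of the vascular lists ringed and the 3 genes in colour. Mir126a at -0.05, Mir221 at 0.19 and Mir222 at -0.03 lie close to the zero line.

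Other miRNAs known from vessel growth and endothelial inflammation were below Mir126a in assigned counts. Of 35 genes in 3 vascular lists, 26 had a higher mean level than Mir221 and 29 a higher one than Mir222. Of the same 35, 7 were called higher in replicate 2 and 5 lower, beside 14% of all genes called. Abundant genes were called more often, at 64% of the 75 that averaged at least 1000 CPM. Many list genes were that abundant, so shares over all genes, here and for each list below, are not matched in level. Whether the vascular lists held more called genes than others of like level was not tested. The list of miRNAs reported to promote angiogenesis held 12.99% ± 0.160 of sense counts over 13 genes (SD, n = 2), 3 called higher and 3 lower, with a median log2 ratio of 0.01 beside 0.02 over all tested genes.

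It was led by Mir322, the mouse counterpart of a hypoxia-induced endothelial miRNA (5.75% ± 0.0461, log2 ratio 0.00), so Mir126a alone stood 1.86-fold above the highest of them. Mir23a (2.62% ± 0.171) and Mir23b (2.20% ± 0.160), known for repressing the angiogenesis inhibitors Spry2 and Sema6a, were lower in replicate 2 at log2 ratios of -0.15 and -0.17. Mir130a, a repressor of antiangiogenic homeobox genes, was higher at 0.09 (1.61% ± 0.0837). Mir296, which targets a sorting protein of VEGF receptors, and Mir10a, a repressor of the decoy receptor Flt1, were higher at 0.28 and 0.27. Mir132, a repressor of Rasa1, was lower at -0.30 with 491 and 605 counts.

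The list of miRNAs reported to restrain angiogenesis held 2.81% ± 0.0558 over 16 genes with a value, with a median log2 ratio of 0.04. Of this list, 3 genes were called higher and 2 lower, beside 8.94% and 5.04% of all genes. Its most abundant members were Mir17 of the miR-17-92 cluster (0.857% ± 0.0211), Mir100, a repressor of Mtor (0.376% ± 0.0152), Mir20a (0.338% ± 0.0178) and Mir16-1, a repressor of Vegfa (0.283% ± 0.00888). Mir17 did not pass at 0.03. Mir100 and Mir20a were higher in replicate 2 at log2 ratios of 0.07 and 0.09, and Mir16-1 was lower at -0.08. Mir92-1, also written Mir92a-1, was lower at -0.26 with 2424 and 3064 counts. Mir200b, which is also an epithelial miRNA, was higher at 0.98 with 108 and 327 counts.

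The endothelial inflammation list held 2.17% ± 0.178 over 6 genes, with a median log2 ratio of 0.05. Of this list, 1 gene was called higher and 0 lower, beside 8.94% and 5.04% of all genes. Mir21a, higher at 0.16, alone held 2.06% ± 0.176 of sense counts. Mir181b-2, a repressor of NF-kB signalling, stood at 759 CPM ± 29.1, and Mir155 at 161 ± 16.9. Mir31, a repressor of E-selectin, had 114 CPM ± 3.00, and Mir31 and Mir221 overlapped in level. Mir146, also written Mir146a, had 57.9 CPM ± 4.54, and its pup range held both values of Mir222. Among these genes, Mir23a, Mir23b, Mir16-1, Mir92-1, Mir181b-2 and Mir146 carry at least 20 nt found in a second miRNA gene, so their values are uncertain.

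**Figure D4:**
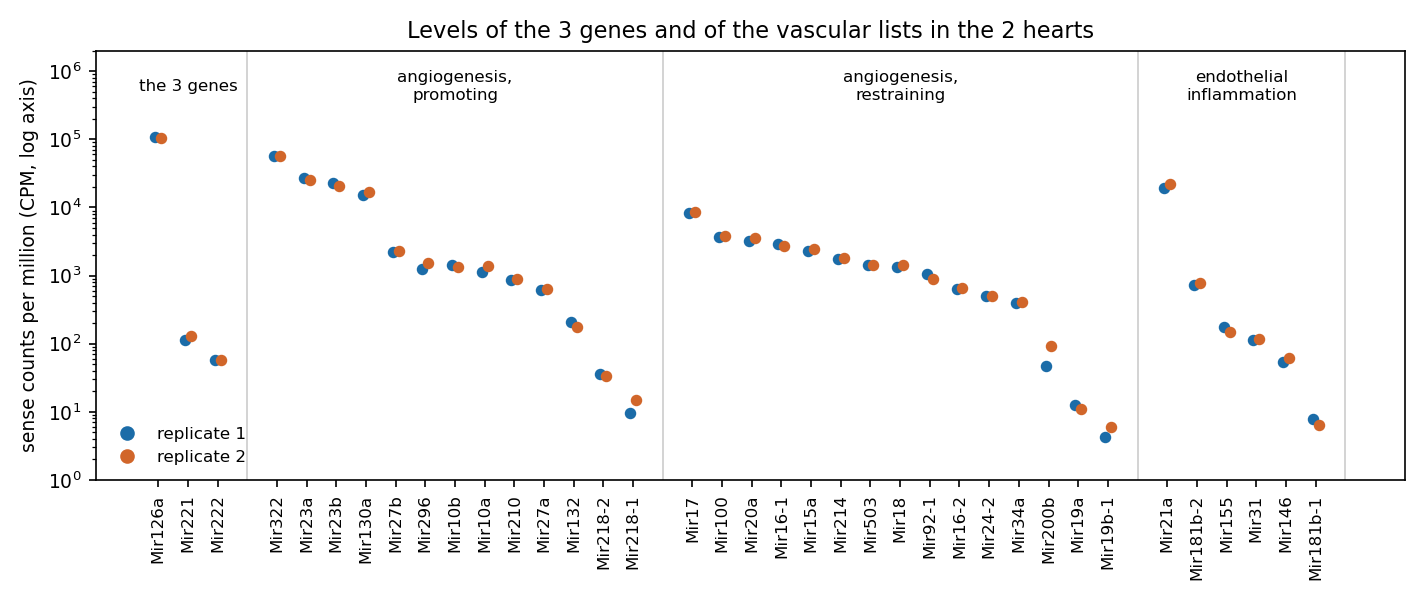
Level in CPM on a log axis for Mir126a, Mir221 and Mir222 and for the genes of the vascular lists with counts in both hearts, blue for replicate 1 and orange for replicate 2. Mir126a lies above every list gene, and Mir221 and Mir222 lie near Mir31 and Mir146.

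Markers of other cell types gave the setting of these levels. The smooth muscle markers Mir143 and Mir145a held 10.03% ± 0.274 of sense counts and the cardiomyocyte markers Mir208a, Mir208b and Mir499 held 8.95% ± 0.0832 (SD, n = 2), with Mir208a lower in replicate 2 at -0.21. The fibroblast and mesenchymal markers held 0.198% ± 0.00697 over 4 genes, of which Mir199a-1, Mir199a-2 and Mir199b have stretches of 20 nt in common and are uncertain. Among blood markers, the erythroid genes Mir451a and Mir144 held 0.0585% ± 0.00602, with Mir144 lower in replicate 2 at -0.53. Mir223, found in platelets and myeloid cells, held 0.0329% ± 0.000835, or 325-fold below Mir126a, and the lymphocyte markers Mir150 and Mir155 held 0.0188% ± 0.00190. The 6 epithelial markers held 0.0204% in replicate 1 and 0.0574% in replicate 2, with 5 of 6 called higher, beside 8.94% of all genes called higher. None of these markers was at 0 in either heart, and their part in the differences of the 3 genes was not tested.

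Known target messages were searched for the letters that pair with the seeds, which places the 2 seeds beside the transcripts of the same species. The longest annotated 3′ UTR of each of 21020 genes was read on the sense strand only, with a median length of 961 nt. The letters CGGTACG, which pair with bases 2 to 8 of miR-126a-3p, occurred in 33 genes (0.157%). The letters GGTACGA, which pair with bases 2 to 7 and end in A, occurred in 154 genes (0.733%). For miR-221-3p and miR-222-3p, which share both motifs, ATGTAGC occurred in 1987 genes (9.45%) and TGTAGCA in 2240 (10.7%); the 2 motifs overlap where a longer match is present.

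Of 4 known targets of Mir126a, only Spred1, an inhibitor of Ras signalling below VEGF, held 1 of its motifs. The motif GGTACGA lies at base 511 of a 4330-nt 3′ UTR, and the printed window is chr2:117178440-117178468, plus strand. Pik3r2, Vcam1 and Dlk1 held neither motif of miR-126a-3p in the 3′ UTR searched. No motif of a 5′ arm of Mir126a was searched, so a target of that arm would show no match here. Of the 5 targets listed for Mir221, Kit held 2 matches to ATGTAGC, Cdkn1b 1, Cdkn1c 1 and Ets1 2, and Stat5a held only TGTAGCA; Kit and Cdkn1b are also the targets listed for Mir222. The windows printed are 29 bases from GENCODE M21 transcripts, with the matched letters in capitals. For Kit the window of the first match is chr5:75654972-75655000, and the other match lies in chr5:75656503-75656531, which is not printed. The window of Cdkn1b is chr6:134924411-134924439, and all are on the plus strand. The searched 3′ UTRs had 2177 nt for Kit, 3439 for Cdkn1b, 688 for Cdkn1c, 3395 for Ets1 and 1173 for Stat5a. The shares over all genes are not matched to these lengths, and the matches were not tested against them. A match is a stretch of letters, and no binding or repression was measured.

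Spred1: ttatatttaactaaatgtaaGGTACGAac

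Kit: tccttaatgatgggagatatATGTAGCaa

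Cdkn1b: tctgcctctaaaagcattggATGTAGCat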

How the data were processed

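Small RNA from the hearts of 2 pups was sequenced, 1 library per heart. The material was total RNA with an insert limit of 30 nt, on assembly mm10, per the labels. The deposited values were whole-number read counts per miRNA gene, not normalized, in 3 columns (strands together, sense, opposite); the deposited description names annotation M4. Aligner, counter and settings are not given in the sources used here. The 4 summary rows were kept out of library sizes. Sense counts were used: 46.0% and 46.9% of 5052766 and 7441784 reads in replicates 1 and 2.

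Of 1973 identifiers, 1894 matched GENCODE M21 (GRCm38, the assembly of mm10), and the other 79 had 0 counts. Libraries were compared with an exact binomial test (scipy 1.17.1) given TMM sizes (edgeR 4.0.16), adjusted over all 615 genes; DESeq2 1.42.0 gave alternative size factors. Log2 ratios used a pseudocount of 1 CPM, and a count of 0 allows up to 3 counts, or 1.29 and 0.860 CPM. The counts of the libraries differed by a chi-square of 33.8 per degree of freedom (297), so they were treated as 2 samples. The test was checked on made-up counts with known fold changes. Those counts varied by counting error only, so the check does not cover the larger differences between these 2 libraries. Hairpins were folded with RNAfold 2.7.2. Named genes were the 3 genes, those that overlap them or share their seed, the 2 next above and below each in mean level, Mir143, the 4 most abundant and any called gene of each vascular list, and the marker lists. Mir146, Mir1a-1 and Mir26a-1 fall outside this rule and were named after their values were seen. Members and lists were chosen with earlier results of these data known. The motif that ends in A was added after the first motif had been searched.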

Additional observations from a re-analysis of the deposited data

Results flagged for a closer look

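The opposite-strand column of the Mir126a row held 5 counts in replicate 1 and 9 in replicate 2. They are listed because the main comparisons use the sense column alone. They were 0.00199% and 0.00244% of the counts of the row on both strands, while over all genes that column took 6.62% and 6.67% of counts. Mir126b, annotated on that strand inside the span of Mir126a, has no value of its own in the counts used here. Whether the opposite-strand counts came from Mir126b was not tested. Its mature arm is shown because 19 nt of it are complementary to miR-126a-3p, with the seed in capitals.

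miR-126b-5p: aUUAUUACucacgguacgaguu

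The opposite strand of the Mir221 and Mir222 rows held 0 counts in both hearts, for which the 3-count limit is 1.29 CPM and 0.860 CPM.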

How the results depend on the processing

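The direction and the side of the threshold of Mir126a, Mir221 and Mir222 between the hearts were the same under pseudocounts of 0.5 and 5 CPM, scaling by total counts, DESeq2 size factors and counts of both strands. The share of all reads was not put to the test, so the call of Mir126a was not checked with that denominator. With it, the change of Mir126a went from -2.31% to -0.451%, and Mir222 turned from -0.809% to 1.08%. For Mir126a the log2 ratio ranged from -0.05 to -0.03, for Mir221 from 0.19 to 0.21 and for Mir222 from -0.03 to -0.01. The number of called genes was 86, and 90 to 97 under the other settings. Levels changed by construction with the denominator. With counts of both strands, Mir126a stood at 99766 CPM and Mir222 at 53.2. Per 1000000 reads of all kinds, Mir126a stood at 49601, Mir221 at 56.3 and Mir222 at 26.5. Over all genes without Mir126a, Mir221 stood at 136 CPM and Mir222 at 63.8. Without replicate 1 or replicate 2 in turn, the level of Mir126a ranged from 105610 to 108110 CPM, that of Mir221 from 112 to 130.2 CPM, that of Mir222 from 56.8 to 57.2 CPM, the log2 ratio of Mir221 over Mir222 from 0.97 to 1.20, and that of Mir126a over their sum from 9.14 to 9.32. The median absolute log2 ratio of neighbouring genes was 2.35 within 1 kb, 2.50 within 50 kb, 2.58 at 10 CPM and 2.55 without genes that share 20 nt, the last chosen after seeing the data. No paired analysis was possible because there is 1 group and no contrast. Depth limits Mir221 and Mir222, with 133 to 454 counts a library; both pups are from 1 litter, so the spread does not cover litters, and pup and library preparation cannot be told apart.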

Other observations

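On the X chromosome, 34 of 120 miRNA genes with a row reached 2 CPM in both hearts. Among these 34 genes, Mir221 ranked 20 and Mir222 ranked 23 by mean level, so both were in the lower part of the detected X-linked miRNAs of this tissue. Predicted pairing within the hairpins covered 80.0% of the bases of Mir221, 74.0% of those of Mir126a and 70.9% of those of Mir222, beside a median of 69.0% over 1005 hairpins.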
